A study of Mus musculus with 12 samples.

Results

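Overexpression of Kitl in pancreatic stellate cells was accompanied by the near loss of 10 transcripts that the control cells carried at moderate to high levels: Rps6ka6, Sh3bgrl2, Elovl4, Cend1, Pip5k1b, Lipo3, Khdrbs3, Svip, Hdgfl3 and Atp1b1. They are 10 of 49671 genes in the count table, and were chosen by their log2 fold change and its standard error, as steady and large falls in Kitl-overexpressing against Egfp-overexpressing libraries. The falls between those groups are therefore given as a description with no test, and the hairpin comparison, whose libraries the choice did not use, carries the test. All 10 passed the filter on low counts that left 15271 genes for testing.

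The cells were ImPSC-1, immortalised stellate cells from mouse pancreas; stellate cells are mesenchymal and lay down collagen when activated. Stable derivatives of this one line formed 4 groups of 3 libraries: cells overexpressing Kitl (Kitl_OE) with cells overexpressing Egfp (Egfp_OE) as their control, and cells with a hairpin that knocks down Kitl (shKitl) with cells carrying a control hairpin, labelled wild type (shCtrl). All were grown in DMEM with serum and pyruvate, and polyA-selected RNA was sequenced. Whether a group's 3 libraries come from separate cultures or clones is not stated, so each p-value covers the spread among these libraries only, which may be technical. The labels also give each library a P number of unstated meaning. It is 18 to 20 in Kitl_OE, 17 to 19 in Egfp_OE, 13 to 15 in shKitl and 14 to 16 in shCtrl. All hairpin libraries thus have lower P numbers than all overexpression libraries.

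Depth ran from 24979742 to 33517686 counts in genes. Kitl itself had 125, 114 and 128 CPM (counts scaled to a common library size with TMM factors) in Kitl_OE, against 72.5, 31.8 and 72.3 CPM in Egfp_OE, and 25.1, 25.5 and 30.3 CPM in shKitl, against 73.5, 73.6 and 76.4 CPM in shCtrl. Egfp_OE replicate 2 stood apart from its group, with the low Kitl value and 1.35% of its reads in spike-ins, where the other 11 libraries had 0.446% to 0.684%. Without it the log2 fold changes of the 10 genes between Kitl_OE and Egfp_OE ran from -7.46 (Sh3bgrl2) to -4.61 (Svip), against -7.39 (Sh3bgrl2) to -4.64 (Svip) with it. Mesenchymal markers summed to 20400 to 23600 CPM in Kitl_OE, against 4840 to 6150 CPM in Egfp_OE, and to 7210 to 16100 CPM in shKitl, against 5400 to 6810 CPM in shCtrl. Of 7 tested markers of 8 on that list, 4 rose in Kitl_OE and 1 fell, Pdgfra, with 15.2 CPM in Kitl_OE, against 195 CPM in Egfp_OE (edgeR log2 -3.68, adjusted p = 0.000412). The 9 pancreatic epithelial markers summed to 3.11 to 9.70 CPM in Kitl_OE, against 2.42 to 4.09 CPM in Egfp_OE, and to 2.04 to 12 CPM in shKitl, against 2.63 to 5.82 CPM in shCtrl, most of it Krt19; Ptf1a, Ins1 and Ins2 had no read. In such bulk RNA, fewer cells that carry a transcript and less of it per cell cannot be told apart.

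KITL, also called stem cell factor, binds the receptor KIT and signals to cells that carry it. The mast cell list, which holds the receptor gene Kit beside Cpa3 and Mcpt4, summed to 0 to 0.0733 CPM in Kitl_OE and to 0 CPM in each Egfp_OE library. It summed to 0 to 0.142 CPM in shKitl, against 0 to 0.0658 CPM in shCtrl. The 10 genes do not belong to one pathway. RPS6KA6 is a kinase, PIP5K1B makes a membrane phosphoinositide, ELOVL4 makes fatty acids, LIPO3 belongs to a family of lipases, KHDRBS3 binds RNA, CEND1 and HDGFL3 are best known from neurons, SVIP restrains the disposal of proteins from the endoplasmic reticulum, SH3BGRL2 is a small thioredoxin-like protein and ATP1B1 is a subunit of the sodium pump.

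The promoters of the 10 genes were of more than one type. The 4 windows below, each 250 bases before and 50 bases from a RefSeq start site on GRCm38.p6, are shown because they run from CpG-rich to CpG-poor; capitals mark CpG dinucleotides.

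Sh3bgrl2, chr9:83548088-83548387, plus strand: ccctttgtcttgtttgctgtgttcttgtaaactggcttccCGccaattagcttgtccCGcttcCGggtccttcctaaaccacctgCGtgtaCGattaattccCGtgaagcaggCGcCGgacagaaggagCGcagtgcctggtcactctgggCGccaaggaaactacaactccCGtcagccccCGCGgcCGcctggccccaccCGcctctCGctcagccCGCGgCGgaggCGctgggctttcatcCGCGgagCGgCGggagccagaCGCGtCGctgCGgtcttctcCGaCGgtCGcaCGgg
Elovl4, chr9:83806256-83806555, minus strand: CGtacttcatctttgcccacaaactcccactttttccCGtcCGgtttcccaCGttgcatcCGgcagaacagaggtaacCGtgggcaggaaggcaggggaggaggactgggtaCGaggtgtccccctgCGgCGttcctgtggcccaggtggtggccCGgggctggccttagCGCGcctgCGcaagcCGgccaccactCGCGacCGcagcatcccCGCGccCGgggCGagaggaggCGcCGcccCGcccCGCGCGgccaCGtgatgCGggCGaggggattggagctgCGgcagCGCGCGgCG
Rps6ka6, chrX:111537910-111538209, minus strand: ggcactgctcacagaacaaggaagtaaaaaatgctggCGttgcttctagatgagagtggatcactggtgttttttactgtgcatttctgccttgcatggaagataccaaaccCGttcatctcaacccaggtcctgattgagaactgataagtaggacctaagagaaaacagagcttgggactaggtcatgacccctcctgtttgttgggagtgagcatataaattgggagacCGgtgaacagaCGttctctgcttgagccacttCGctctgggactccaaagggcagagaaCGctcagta
Lipo3, chr19:33590262-33590561, minus strand: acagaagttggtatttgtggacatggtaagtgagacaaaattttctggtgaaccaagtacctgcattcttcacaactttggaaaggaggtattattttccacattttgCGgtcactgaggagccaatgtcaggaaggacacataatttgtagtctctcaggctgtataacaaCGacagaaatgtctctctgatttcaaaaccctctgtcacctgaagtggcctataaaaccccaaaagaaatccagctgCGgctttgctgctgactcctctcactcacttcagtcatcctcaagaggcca

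The windows of Sh3bgrl2 and Elovl4 are dense in capitals, and those of Rps6ka6 and Lipo3 hold few. Sh3bgrl2 held 32 CpG, more than 90.5% of the 32851 promoters of the table, and Elovl4 held 35, more than 93.0%. The Rps6ka6 window above held 6, more than 43.6% of promoters and near their median of 7, and Lipo3 held 3, more than 23.3% of promoters. The Lipo3 window lies inside the annotated body of the gene, away from that body's start at 33761951 on the minus strand. RefSeq promoters were matched for 8 of the 10 genes, with 10 windows in all, since Rps6ka6 and Svip have 2 each. Among the others Hdgfl3 held 36 CpG, Atp1b1 31, the pair of Svip windows 24 and 15, the second Rps6ka6 window 16, and Cend1 5. The median was 20 CpG and 64.3% GC over the 10 windows, and 7 CpG and 52.7% GC over all promoters. The set of all promoters was not limited to genes that passed the count filter, as the 10 genes did. These medians are thus not a comparison with other expressed genes.

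**Figure D1:**
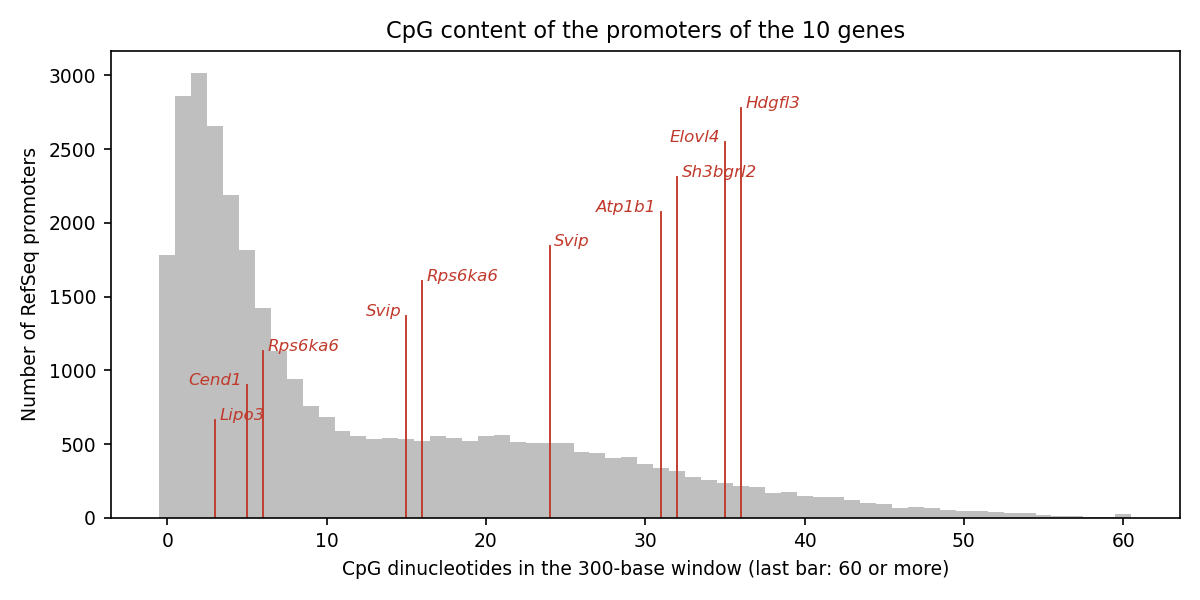
Number of RefSeq promoters (y axis) by the CpG dinucleotides in their 300-base window (x axis), with a red line for each of the 10 windows of 8 genes; the height of a red line only carries its label. The windows spread from 3 CpG in Lipo3 to 36 in Hdgfl3.

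Short motifs were searched on both strands of the same windows. TATAAA, the TATA box, began 28 bases before the start site of Lipo3 and 33 bases before that of Rps6ka6, and in no other of the 10 windows; 13.6% of all promoters hold it. In the Rps6ka6 window it shared a base with a CCAAT box on the other strand, and GC boxes overlapped each other in Elovl4 and a CCAAT box in Svip. CCAAT was found in 8 of the 10 windows, against 37.4% of all promoters, and the GC box GGGCGG in 6 of 10, against 35.7%. The E-box CACGTG was found once, in Elovl4 (7.15% of all promoters), and neither TGACGTCA (1.79%) nor the AP-1 motif TGANTCA (7.81%) was found in any window. These matches describe letters and not binding, and the shares of all promoters are again not limited to expressed genes.

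The largest fall was that of Sh3bgrl2, a member of the SH3BGR family of small proteins with a thioredoxin-like fold (ENSMUSG00000032261, GRCm38 chromosome 9, 83548327 to 83638801, plus strand). It had 4, 5 and 2 reads in Kitl_OE, against 737, 508 and 842 reads in Egfp_OE. In CPM these were 0.156, 0.183 and 0.0683 in Kitl_OE, against 21.1, 20.4 and 28.3 in Egfp_OE, and the hairpin libraries held 5.33, 8.61 and 7.36 in shKitl, against 11.6, 10.1 and 8.14 in shCtrl. The Kitl_OE libraries thus lay far below all others, and the hairpin groups overlapped. The log2 fold change in Kitl_OE was -7.39 (SE 0.375), a mean 171-fold lower than in Egfp_OE. The 11 reads of the 3 Kitl_OE libraries have an exact 95% Poisson interval of 5.49 to 19.7, which covers counting error only.

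Elovl4 encodes the elongase that makes very long-chain fatty acids, known for its roles in retina, skin and brain (ENSMUSG00000032262, chromosome 9, 83778692 to 83806277, minus strand). Its levels were 0.973, 0.843 and 0.820 CPM in Kitl_OE, against 32.1, 25.5 and 32.9 CPM in Egfp_OE. They were 16.7, 15.7 and 26.5 CPM in shKitl, against 21.1, 25.3 and 29.3 CPM in shCtrl. The 9 libraries outside Kitl_OE overlapped across their groups, and the Kitl_OE libraries lay closely together far below them (log2 -5.10, SE 0.271; 34.4-fold lower).

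Sh3bgrl2 and Elovl4 lie side by side and are transcribed toward each other, with 140 kb between their bodies and 258 kb between their start sites. The annotation places 2 lincRNA genes between them, Gm36120 with 0 reads and Gm2109 with 1 read over all 12 libraries. Both members of the pair fell, but not by the same amount. Per length, in TPM, Elovl4 exceeded Sh3bgrl2 by 16.24, 11.96 and 31.17 times in Kitl_OE, against 3.95, 3.26 and 3.03 times in Egfp_OE. In the hairpin lines the ratio was 8.14, 4.72 and 9.37 in shKitl, against 4.74, 6.49 and 9.35 in shCtrl. The ratio was highest in Kitl_OE and lowest in Egfp_OE, with no overlap between them or with the hairpin libraries, although in Kitl_OE it rests on 2 to 5 reads of Sh3bgrl2 a library.

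The genes that flank the pair were not chosen for their values and keep their test (edgeR's quasi-likelihood test, Benjamini-Hochberg adjustment over 15271 genes), by which 34.3% of all genes passed an adjusted p of 0.05 between Kitl_OE and Egfp_OE. On the Elovl4 side, Ttk, a mitotic checkpoint kinase 28.4 kb away, fell to 13.9 ± 3.34 CPM in Kitl_OE, against 40.9 ± 7.04 CPM in Egfp_OE (SD, n = 3 each; log2 -1.56, adjusted p = 0.000567). Next to it Bckdhb, a subunit of the branched-chain ketoacid dehydrogenase, had 10.6 CPM in Kitl_OE, against 8.85 CPM in Egfp_OE (log2 0.26, adjusted p = 0.285). On the Sh3bgrl2 side, Lca5, a ciliary protein gene 107 kb away, was at log2 -0.75 (adjusted p = 0.0680), and passed without Egfp_OE replicate 2 (log2 -1.03, adjusted p = 0.00275). Hmgn3, a nucleosome-binding protein gene 402 kb away, fell to 9.43 ± 0.876 CPM in Kitl_OE, against 67.4 ± 33.1 CPM in Egfp_OE (log2 -2.84, adjusted p = 6.29e-05).

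**Figure D2:**
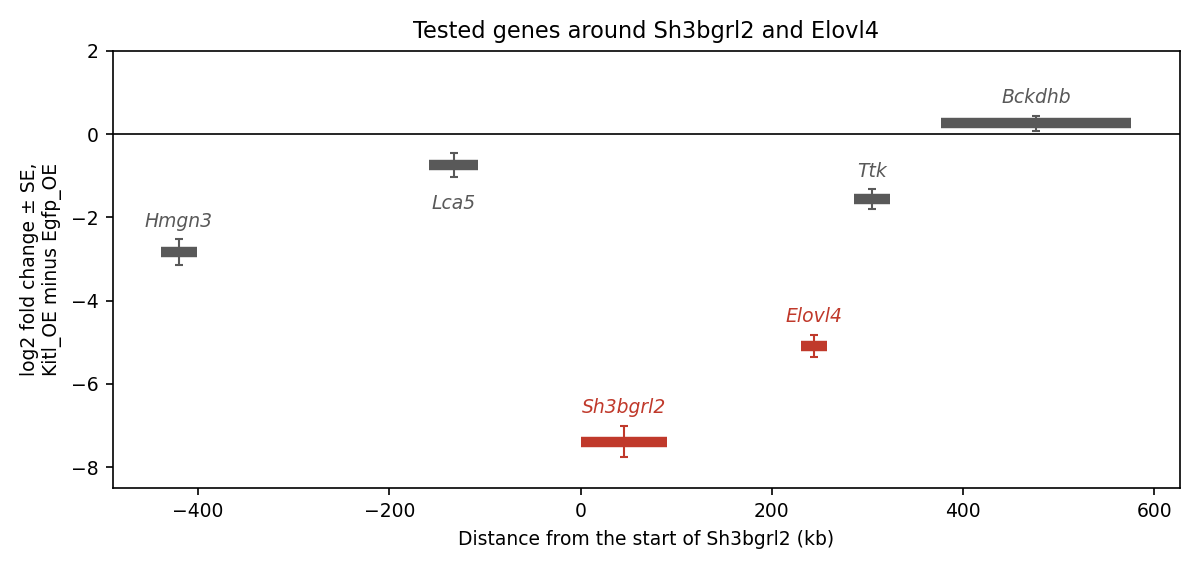
Log2 fold change of Kitl_OE minus Egfp_OE, ± SE, of the tested genes around Sh3bgrl2 and Elovl4 (y axis) by distance from the start of Sh3bgrl2 in kb (x axis); each bar spans the gene body, red for the pair. The pair lies lowest, at -7.39 and -5.10, Hmgn3 and Ttk lie at -2.84 and -1.56, and Bckdhb lies at 0.26.

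Rps6ka6, an X-linked gene for a p90 ribosomal S6 kinase, a family that acts with ERK signalling (ENSMUSG00000025665, chromosome X, 111388192 to 111537959, minus strand), had the second largest fall. It stood at 0.623, 0.550 and 0.410 CPM in Kitl_OE, against 45.9, 33.9 and 51.6 CPM in Egfp_OE (log2 -6.37, SE 0.269; 83.0-fold lower). The hairpin lines held 6.79, 8.06 and 9.30 CPM in shKitl, against 18.3, 16.6 and 14.7 CPM in shCtrl. Its 4 groups did not overlap at any step of their order, Egfp_OE above shCtrl above shKitl above Kitl_OE. Among the 10 genes this held also for Pip5k1b, in another order. The place of Kitl_OE below Egfp_OE was set by the choice of the genes. The share of all genes whose groups separate at every step is not given here.

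Pip5k1b encodes a kinase that makes phosphatidylinositol 4,5-bisphosphate, a lipid of the plasma membrane (ENSMUSG00000024867, chromosome 19, 24294794 to 24555872, minus strand). It had 0.0603 ± 0.0384 TPM in Kitl_OE, against 3.53 ± 1.07 TPM in Egfp_OE (SD, n = 3 each), per length the lowest Egfp_OE level of the 10, and 1, 2 and 4 reads in Kitl_OE, against 164, 109 and 167 reads in Egfp_OE. As CPM this was 0.0389, 0.0733 and 0.137 in Kitl_OE, against 4.69, 4.37 and 5.61 in Egfp_OE, with 8.85, 10.98 and 10.1 in shKitl, against 7.01, 7.69 and 7.93 in shCtrl. Here the order differed from Rps6ka6, with shKitl above shCtrl above Egfp_OE above Kitl_OE. The log2 fold change in Kitl_OE was -5.78 (SE 0.349), and the 7 reads behind it have an exact 95% Poisson interval of 2.81 to 14.4.

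Lipo3 belongs to the acid lipase family (ENSMUSG00000024766, chromosome 19, 33555160 to 33761951, minus strand). Its levels were 0.195, 0.513 and 0.546 CPM in Kitl_OE, against 24.9, 34.3 and 25.6 CPM in Egfp_OE (log2 -6.05, SE 0.345). They were 11.98, 16.97 and 13.19 CPM in shKitl, against 19.8, 14.8 and 16.5 CPM in shCtrl, so that the hairpin groups overlapped. Its annotated body spans the close copies Lipo2, Gm8978 and Gm8980, which held 9, 0 and 0 reads in all, and the split of reads among such copies is uncertain.

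Khdrbs3 encodes an RNA-binding protein of the STAR family that regulates splicing (ENSMUSG00000022332, chromosome 15, 68928420 to 69101211, plus strand). It stood at 1.13, 1.76 and 1.43 CPM in Kitl_OE, against 75.02, 121.7 and 75.75 CPM in Egfp_OE (log2 -5.97, SE 0.358; 63.1-fold lower). The hairpin libraries held 46.4, 76.1 and 104 CPM in shKitl, against 73.1, 81.6 and 80.1 CPM in shCtrl. The 3 groups outside Kitl_OE overlapped one another, and the shKitl libraries were the most spread.

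Svip encodes a small inhibitor of ER-associated degradation that binds the ATPase VCP (ENSMUSG00000074093, chromosome 7, 51997171 to 52006018, minus strand). It had 0.584, 0.916 and 0.922 CPM in Kitl_OE, against 18.8, 20.6 and 21.5 CPM in Egfp_OE, and 5.79, 7.15 and 8.29 CPM in shKitl, against 10.46, 8.001 and 8.773 CPM in shCtrl. This was the smallest fall of the 10 (log2 -4.64, SE 0.260; 25.1-fold lower), and 418 genes, the 10 included, had a log2 fold change at least as low. Of these, 19 also had an SE no larger than 0.375, the largest among the 10. Within that SE, the genes just beyond Svip were Sox9 at -4.61 and Gm53 at -4.47, and the nearest on the inner side that are not among the 10 were Mageh1 at -4.72 and Mb21d2 at -4.97.

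Cend1 encodes a protein that promotes cell-cycle exit in developing neurons (ENSMUSG00000060240, chromosome 7, 141426446 to 141429491, minus strand). It stood at 0.272, 0.293 and 0.273 CPM in Kitl_OE, against 8.787, 16.03 and 16.48 CPM in Egfp_OE (log2 -5.60, SE 0.320). In the hairpin lines it had 16.4, 15.4 and 15.8 CPM in shKitl, against 12.4, 10.1 and 8.52 CPM in shCtrl. The shKitl libraries lay above all shCtrl libraries, and both groups overlapped the wide Egfp_OE group.

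Hdgfl3 encodes a PWWP-domain protein of the HDGF family (ENSMUSG00000025104, chromosome 7, 81881251 to 81934473, minus strand). It had 0.739, 1.25 and 2.05 CPM in Kitl_OE, against 58.9, 61.5 and 57.5 CPM in Egfp_OE (log2 -5.45, SE 0.321; 44.1-fold lower). It had 17.2, 21.4 and 16.1 CPM in shKitl, against 27.1, 22.7 and 20.4 CPM in shCtrl. The hairpin groups overlapped and lay well below Egfp_OE and well above Kitl_OE.

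Atp1b1, the beta-1 subunit that brings the sodium pump to the plasma membrane (ENSMUSG00000026576, chromosome 1, 164437109 to 164458355, minus strand), had 2.66 ± 0.872 TPM in Kitl_OE, against 137 ± 30.7 TPM in Egfp_OE (SD, n = 3 each). Per length it and Khdrbs3, at 133 ± 13.3 TPM, were the most abundant of the 10 in Egfp_OE. In CPM it had 2.22, 2.53 and 3.72 in Kitl_OE, against 120, 163 and 160 in Egfp_OE (log2 -5.71, SE 0.271; 52.4-fold lower). The hairpin libraries held 52.0, 49.8 and 38.6 CPM in shKitl, against 65.9, 51.6 and 46.4 CPM in shCtrl, and overlapped.

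**Figure D3:**
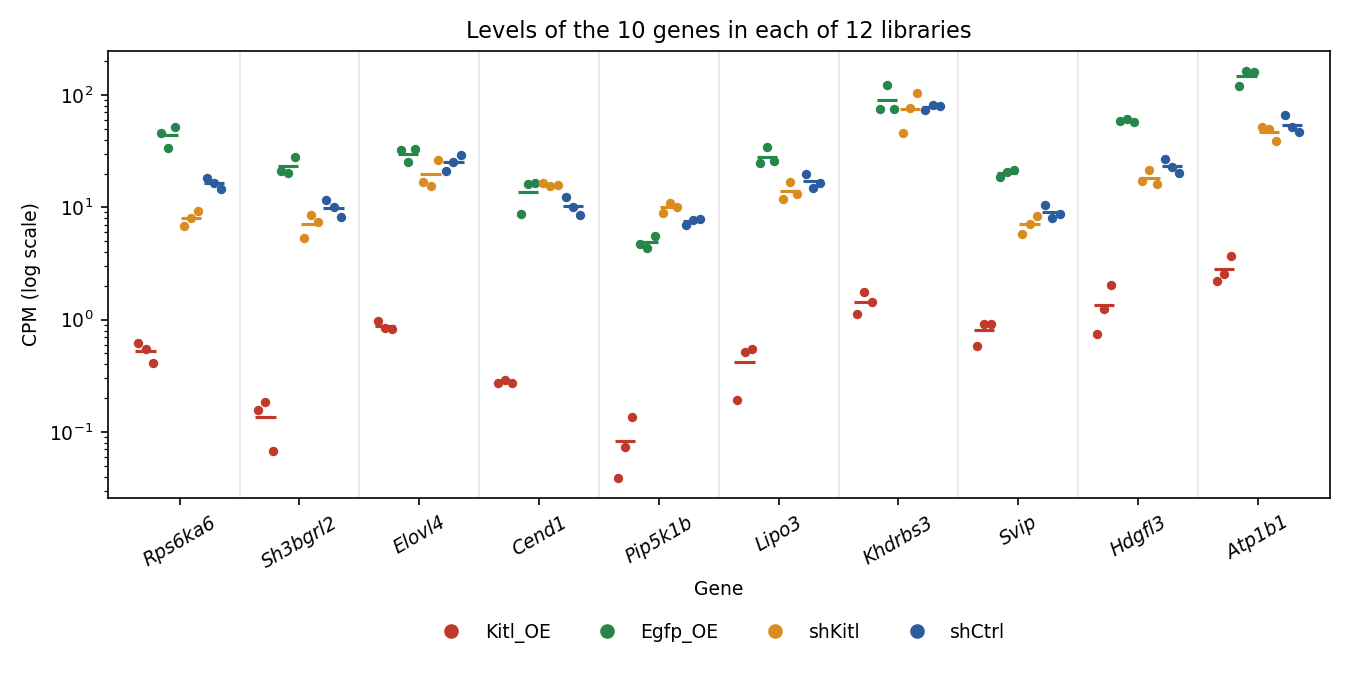
Level of each gene in CPM on a log axis, with 1 point per library and a bar at the mean of the 3 libraries of a group. The 3 Kitl_OE libraries lie below the other 9 for every one of the 10 genes, while the order of the other 3 groups varies.

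The highest Kitl_OE library was exceeded by the lowest hairpin library 6.28 (Svip) to 51.3 times (Pip5k1b), and by the lowest Egfp_OE library 20.4 (Svip) to 111 times (Sh3bgrl2). Over all tested genes, 2100 (13.8%) had their 3 Kitl_OE libraries below the other 9, and 25.6% had them below the 3 Egfp_OE libraries. A log2 fold change of -4 or lower was reached by 3.71% of genes, with a median of -0.07 over all genes and -5.74 over the 10. What remained in Kitl_OE was 0.584% (Sh3bgrl2) to 3.98% (Svip) of the Egfp_OE mean, and 1.10% (Pip5k1b) to 8.89% (Svip) of the shCtrl mean. The shCtrl and shKitl libraries were not used to choose the genes, but the Kitl_OE libraries were, so these last values are a description too.

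The control lines were not alike, and their P numbers did not overlap (17 to 19 in Egfp_OE, 14 to 16 in shCtrl). A difference that goes with the line and one that goes with the P number cannot be told apart here. Rps6ka6, Sh3bgrl2, Lipo3, Svip, Hdgfl3 and Atp1b1 were higher in every Egfp_OE library than in every shCtrl library, by 1.66 (Lipo3) to 2.71 times (Atp1b1) in the means. Pip5k1b was lower in every Egfp_OE library (4.89 ± 0.641 CPM in Egfp_OE, against 7.54 ± 0.475 CPM in shCtrl; SD, n = 3 each), and Elovl4, Cend1 and Khdrbs3 overlapped. The Egfp_OE libraries were among those that chose the genes, and this comparison of the control lines is given with no test. The share of all genes whose Egfp_OE and shCtrl libraries do not overlap is not given here. The separation is thus not read as a trait of these genes.

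The question of the hairpin comparison was whether less Kitl also moves these genes. None of the 10 passed: 0 of 15271 genes (0%) had an adjusted p under 0.05 by edgeR's quasi-likelihood test, while 15.8% of all genes and 2 of the 10 had an unadjusted p under 0.05, and DESeq2 called 313 genes higher and 114 lower in shKitl. The log2 fold changes were below 0 for 8 of the 10 and above 0 for Cend1 and Pip5k1b, with a median of -0.32, against 0.05 over all genes. The hairpin groups did not overlap for 3 of the 10, where 19.7% of all genes do not overlap.

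Rps6ka6 had the largest change, with 8.05 ± 1.26 CPM in shKitl, against 16.5 ± 1.78 CPM in shCtrl (SD, n = 3 each), lower in each shKitl library than in each shCtrl library. Its log2 fold change was -1.04 (95% interval -1.44 to -0.63; edgeR adjusted p = 0.134, unadjusted p = 0.000332). DESeq2 called it (log2 -1.08, adjusted p = 0.00176), as did edgeR without shKitl replicate 3 (-1.16, adjusted p = 0.0415) and without Egfp_OE replicate 2 (-1.06, adjusted p = 0.0352); over 24 alternatives its adjusted p ran from 0.00176 to 0.956.

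Cend1 had 15.9 ± 0.512 CPM in shKitl, against 10.3 ± 1.96 CPM in shCtrl (log2 0.62, 95% interval 0.14 to 1.09; edgeR adjusted p = 0.273). Pip5k1b had 9.97 ± 1.07 CPM in shKitl, against 7.54 ± 0.475 CPM in shCtrl (log2 0.40, interval -0.07 to 0.88; edgeR adjusted p = 0.420). Neither passed, and both groups of libraries were separate. For the other 7 genes the groups overlapped and the edgeR adjusted p ran from 0.373 (Sh3bgrl2) to 0.949 (Khdrbs3). Their intervals bound a fall in shKitl at log2 -0.996 for Sh3bgrl2, -0.79 for Elovl4, Lipo3 and Svip, -0.87 for Hdgfl3, -0.65 for Atp1b1 and -0.60 for Khdrbs3, so a loss of the size seen in Kitl_OE lies outside each.

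**Figure D4:**
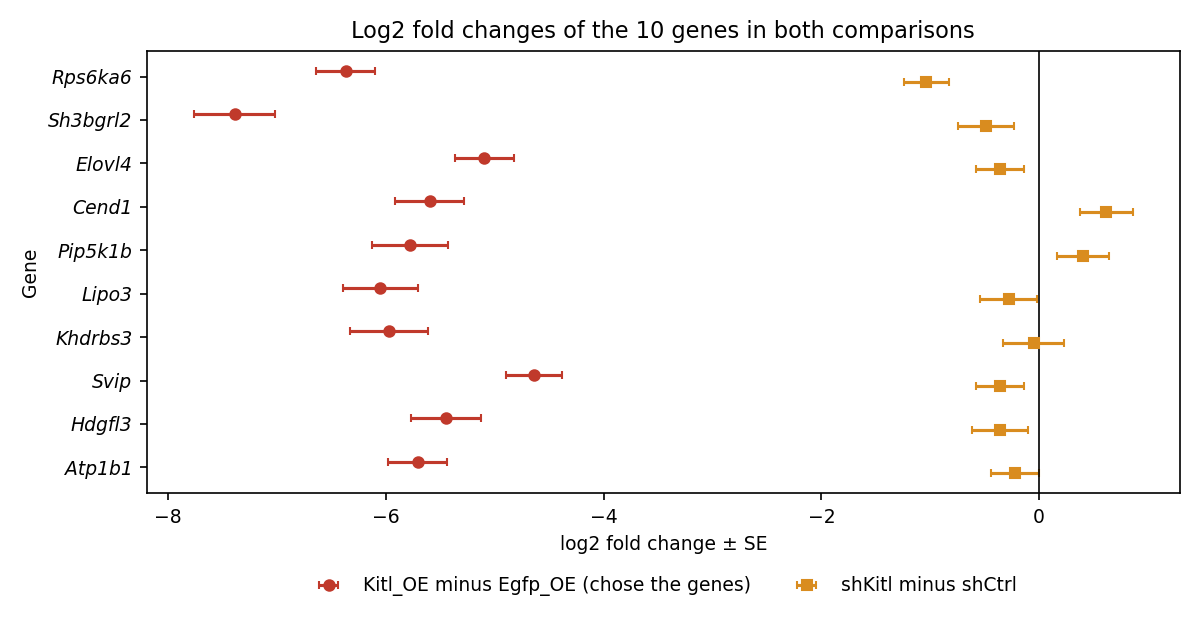
Log2 fold change ± SE of each gene (y axis) for Kitl_OE minus Egfp_OE (circles), the comparison that chose the genes, and for shKitl minus shCtrl (squares). The circles lie between -7.39 and -4.64, and the squares between -1.04 and 0.62.

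Relatives of the 10 genes, their paralogs and partners in 10 lists, were examined to see how far the fall extended through each family. Of 87 relatives 67 were tested, and between Kitl_OE and Egfp_OE 16 rose and 13 fell (43.3%, beside 34.3% of all genes), with a median log2 of -0.01, against -0.07 over all genes. In 13 of these 29 the call ended when 1 library was left out, and 19 of the 29 did not pass under spike-in scaling. None of the 67 passed in the hairpin comparison by edgeR, where 15 had an unadjusted p under 0.05, and DESeq2 called Nkain3 and Fads1 higher and Ranbp9 lower.

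Among the p90 kinase relatives no paralog passed by edgeR. Rps6ka1 was at log2 0.02, Rps6ka2 at 0.43, Rps6ka3 at -0.18, Rps6ka4 at 0.04 and Rps6ka5 at 0.72 (adjusted p from 0.0669 to 0.957), and of 8 tested genes only Mapk3, the kinase ERK1, passed (log2 0.51, adjusted p = 0.0459), a call that ended with Kitl_OE replicate 1 left out (0.49, adjusted p = 0.117). Rps6ka3 passed as lower without Egfp_OE replicate 2 (-0.44, adjusted p = 0.0158). Rps6ka5 passed as higher by DESeq2 (0.72, adjusted p = 0.0400), with the P number as a covariate (0.93, adjusted p = 0.0255) and without shKitl replicate 3 (0.73, adjusted p = 0.0255). Rps6ka6 made up 0.382% ± 0.0828 of the summed TPM of Rps6ka1, Rps6ka2, Rps6ka3 and Rps6ka6 in Kitl_OE, against 24.8% ± 4.31 in Egfp_OE, and 4.51% ± 0.260 in shKitl, against 8.97% ± 1.10 in shCtrl (SD, n = 3 each).

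In the SH3BGR family the paralog Sh3bgr rose where Sh3bgrl2 fell. Sh3bgr had 7.20, 5.64 and 7.85 CPM in Kitl_OE, against 0.429, 0.681 and 0.403 CPM in Egfp_OE (log2 3.77, SE 0.643, adjusted p = 0.00119). Sh3bgrl (log2 0.45, adjusted p = 0.0551) and Sh3bgrl3 (-0.17, adjusted p = 0.577) did not pass, although Sh3bgrl passed as higher in 7 of 24 alternatives, among them DESeq2 (0.45, adjusted p = 0.0280) and edgeR without Egfp_OE replicate 2 (0.56, adjusted p = 0.0122). Sh3bgrl2 was a small part of the family, at 0.00916% ± 0.00416 of its TPM in Kitl_OE, against 1.77% ± 0.659 in Egfp_OE.

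Fatty acid elongation showed changes in both directions, with 4 of 11 tested relatives of Elovl4 higher and 3 lower. Elovl6, which elongates saturated C16 chains, fell to 31.1 CPM in Kitl_OE, against 109.6 CPM in Egfp_OE (log2 -1.82, SE 0.237, adjusted p = 0.000222), and the low-abundance Elovl7 fell by 2.95 on the log2 scale (adjusted p = 0.00570). Elovl1, another elongase of long saturated chains, rose to 117 CPM in Kitl_OE, against 65.7 CPM in Egfp_OE (log2 0.83, adjusted p = 0.000938), and the desaturase Fads2 rose by log2 1.15 (adjusted p = 0.0129), while Elovl5 did not pass (-0.36, adjusted p = 0.0896) except without Egfp_OE replicate 2 (-0.49, adjusted p = 0.00261). Under spike-in scaling Elovl1 and Fads2 kept their direction but not their call (adjusted p = 0.142 for Elovl1 and 0.227 for Fads2). The dehydratase genes Hacd1 (1.00), Hacd2 (0.39) and Hacd3 (-0.57) passed, and all 3 calls ended without Kitl_OE replicate 1 (adjusted p = 0.0897 for Hacd1, 0.109 for Hacd2 and 0.0508 for Hacd3).

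The other kinases of the PIP5K1 type did not pass. Pip5k1a was at log2 -0.07 (adjusted p = 0.674) and Pip5k1c at -0.00 (adjusted p = 0.994). The PIP4K genes Pip4k2a (log2 1.12, adjusted p = 0.00152) and Pip4k2c (0.90, adjusted p = 0.00212), whose products reach the same lipid by another route, rose, and the PI4-kinases Pi4k2a (-0.56, adjusted p = 0.00933; 0.0547 without Kitl_OE replicate 1) and Pi4k2b (-0.73, adjusted p = 0.00226) fell. Pip5k1b was 0.0476% ± 0.0278 of the PIP5K1 TPM in Kitl_OE, against 2.72% ± 0.355 in Egfp_OE.

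Of the KHDRBS family, Khdrbs2 fell along with Khdrbs3. It had 2 reads in the 3 Kitl_OE libraries, and its CPM was 0.0389, 0 and 0.0341 in Kitl_OE, against 3.66, 7.49 and 4.87 in Egfp_OE (log2 -7.53, adjusted p = 8.24e-06). The ratio of Egfp_OE over Kitl_OE was 219, with a counting interval of 60.7 to 1810. Khdrbs1, the founding member SAM68, stood at log2 -0.12 (adjusted p = 0.579). Per length, Khdrbs3 made up 2.03% ± 0.472 of the family in Kitl_OE, against 53.6% ± 9.11 in Egfp_OE, and 52.0% ± 9.61 in shKitl, against 50.4% ± 1.47 in shCtrl (SD, n = 3 each). The summed family TPM was 108 ± 3.55 in Kitl_OE, against 251 ± 21.4 in Egfp_OE (SD, n = 3 each).

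The sodium pump list had 8 of 9 tested relatives past the threshold, 4 in each direction. The remaining abundant beta subunit, Atp1b3, fell to 198 ± 14.3 TPM in Kitl_OE, against 329 ± 26.8 TPM in Egfp_OE (log2 of the counts -0.78, adjusted p = 0.00543). Under spike-in scaling in edgeR it kept its direction but not its call (log2 -0.61, adjusted p = 0.241). In the hairpin lines it had 200 ± 10.0 TPM in shKitl, against 272 ± 21.9 TPM in shCtrl. The summed beta subunits were 201 ± 14.9 TPM in Kitl_OE, against 467 ± 41.6 TPM in Egfp_OE, and 246 ± 8.16 TPM in shKitl, against 328 ± 36.7 TPM in shCtrl. Atp1b1 supplied 1.31% ± 0.373 of that sum in Kitl_OE, against 29.2% ± 4.65 in Egfp_OE. Genes of the NKAIN family, whose products bind the beta-1 subunit, went both ways: Nkain1 fell (-1.93, adjusted p = 0.00199), and Nkain2 (2.79, adjusted p = 0.00139), Nkain3 (4.46, adjusted p = 0.00152) and Nkain4 (8.64, adjusted p = 0.000178) rose. Nkain4 had 59.3, 69.3 and 25.4 CPM in Kitl_OE, against 0.0573, 0.200 and 0.134 CPM in Egfp_OE, and it is also on the list of mesothelial markers. The calls of Atp1b2 (-1.68, adjusted p = 0.0421) and Fxyd5 (-1.43, adjusted p = 0.0136) ended without Kitl_OE replicate 1 (adjusted p = 0.139 for Atp1b2 and 0.0682 for Fxyd5).

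Around Svip, 4 of 15 tested genes of ER-associated degradation rose and 2 fell. Vcp itself was at log2 -0.10 (adjusted p = 0.658). Herpud1 rose (1.07, adjusted p = 0.00148), and Faf2, which recruits VCP to the ER membrane, fell (-0.70, adjusted p = 0.00155; 0.294 under spike-in scaling). The calls of Sel1l (0.57, 0.0332 with all libraries and an adjusted p of 0.0863 without Kitl_OE replicate 1), Os9 (0.86, adjusted p = 0.0204; 0.0635 without Kitl_OE replicate 2) and Nploc4 (-0.61, adjusted p = 0.0328; 0.130 without Kitl_OE replicate 1) each ended without the library named. In the HDGF family Hdgf (-0.29, adjusted p = 0.374) and Hdgfl2 (-0.05, adjusted p = 0.855) did not pass, and Psip1 fell (-0.74, adjusted p = 0.0129; 0.0501 without Kitl_OE replicate 2). None of the 4 partners of Cend1 passed, with Ccnd1, cyclin D1, at log2 0.30 (adjusted p = 0.507). Lipa, the lysosomal acid lipase, did not pass (0.42, adjusted p = 0.241), and the other Lipo genes had at most 3 reads in the Kitl_OE and Egfp_OE libraries together.

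**Figure D5:**
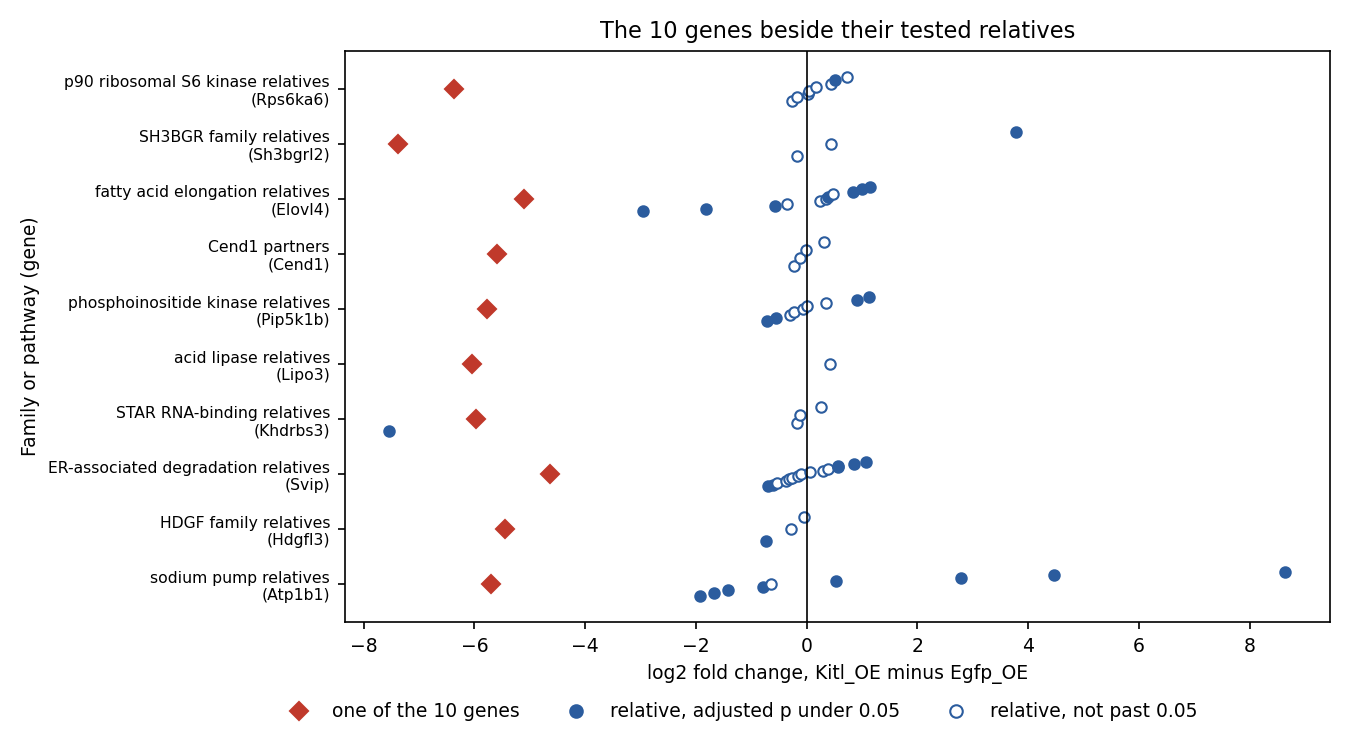
Log2 fold change of Kitl_OE minus Egfp_OE (x axis) for the 10 genes (diamonds) and their tested relatives by list (circles, filled where the adjusted p is under 0.05). Most relatives lie within 1 of 0, and Khdrbs2, at -7.53, is the one relative as low as the diamonds.

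Genomic neighbours were taken as the 2 nearest tested genes on each side of each gene and any that overlapped it. Of 36 that are not among the 10, 12 fell and 4 rose (44.4%, beside 34.3% of all genes), with a median log2 of -0.42, against -0.07 over all genes; 8 of these 16 did not pass under spike-in scaling. By edgeR none passed in the hairpin comparison, where 3 had an unadjusted p under 0.05 and DESeq2 called 2. Gas2, a growth-arrest gene 2.20 kb from Svip, fell to 6.08 ± 0.163 CPM in Kitl_OE, against 42.5 ± 3.48 CPM in Egfp_OE (log2 -2.80, adjusted p = 6.57e-05), and Fancf beyond it fell by 1.60 on the log2 scale (adjusted p = 0.000258).

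Hdgfl3 had rising neighbours. Bnc1, a transcription factor gene 32.2 kb away that is on the list of mesothelial markers, rose to 80.3 ± 23.2 CPM in Kitl_OE, against 11.9 ± 5.36 CPM in Egfp_OE (log2 2.76, adjusted p = 0.00519), and the lincRNA Gm20744 rose as well (3.63, adjusted p = 0.000981). Acta2, the smooth muscle actin gene 479 kb from Lipo3, rose to 2765 ± 983 CPM in Kitl_OE, against 148 ± 63.4 CPM in Egfp_OE (log2 4.23, adjusted p = 0.00215), while Stambpl1 beside it fell (-0.88, adjusted p = 0.00128).

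Genes that overlap or nearly touch one of the 10 had smaller log2 fold changes than it. Fam122a, which lies within the body of Pip5k1b, had 11.6 ± 1.02 CPM in Kitl_OE, against 12.4 ± 0.846 CPM in Egfp_OE (log2 -0.10, adjusted p = 0.651). Nme7, whose body overlaps Atp1b1 on the other strand, fell to 14.98 ± 1.06 CPM in Kitl_OE, against 26.7 ± 1.80 CPM in Egfp_OE (log2 -0.83, adjusted p = 0.00137), and Slc25a22, 253 bases from Cend1, was at -0.68 (adjusted p = 0.0201; 0.105 without Kitl_OE replicate 1). Tm6sf1, which overlaps Hdgfl3, was at -0.45 (adjusted p = 0.514). No source used here states the strand setting of the counting, so reads from overlapping genes on opposite strands cannot be told apart.

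Other neighbours that passed included St3gal1 near Khdrbs3 (-1.27, adjusted p = 0.00502), Btbd1 near Hdgfl3 (-0.52, adjusted p = 0.0140; 0.0843 without Kitl_OE replicate 3), Blzf1 near Atp1b1 (0.58, adjusted p = 0.0138; 0.0526 without Kitl_OE replicate 1) and Dpt near Atp1b1 (-5.23, adjusted p = 0.0351; -3.27 with an adjusted p of 0.147 without Egfp_OE replicate 2). Pou3f4, the nearest tested gene before Rps6ka6, had 3 reads in Kitl_OE and passed at an adjusted p of 0.0371, with a ratio of Egfp_OE over Kitl_OE of 11.8 and a counting interval of 4.05 to 57.4; without Egfp_OE replicate 1 its adjusted p was 0.266.

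Across the 12 libraries each of the 10 genes followed the mean of the other 9, with Pearson's r from 0.939 (Pip5k1b) to 0.993 (Lipo3) on log2 CPM, a description of a choice made on part of the same libraries. Among 10519 genes compared, the 5 most like the mean of the 10 were Nudt11 (r = 0.997), Fbln1 (0.994), Glul (0.992), Spp1 (0.990) and Chst10 (0.990). Nudt11 had no read in Kitl_OE, against 6.13 ± 1.20 CPM in Egfp_OE, with 2.08 ± 0.539 CPM in shKitl, against 2.75 ± 0.416 CPM in shCtrl. Fbln1, a matrix glycoprotein, had 1.33 ± 0.385 CPM in Kitl_OE, against 179 ± 46.3 CPM in Egfp_OE, with 70.6 ± 14.7 CPM in shKitl, against 94.0 ± 12.1 CPM in shCtrl. Glul, glutamine synthetase, had 1.32 ± 0.601 CPM in Kitl_OE, against 74.4 ± 11.8 CPM in Egfp_OE. All these relations share the low Kitl_OE group.

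Markers of other cell types differed between the same libraries. Neuronal markers summed to 18.2 to 26.2 CPM in Kitl_OE, against 44.0 to 63.4 CPM in Egfp_OE, and to 57.3 to 96.3 CPM in shKitl, against 37.3 to 44.5 CPM in shCtrl; 3 of 4 tested of 7 fell in Kitl_OE, Snap25 had 2 reads and Rbfox3 had 3 over all 12 libraries. Mesothelial markers summed to 377 to 631 CPM in Kitl_OE, against 16.5 to 31.1 CPM in Egfp_OE, and to 109 to 189 CPM in shKitl, against 76.4 to 103 CPM in shCtrl; 6 of 6 tested of 8 rose in Kitl_OE. Endothelial markers summed to 21.4 to 25.9 CPM in Kitl_OE, against 3.32 to 4.84 CPM in Egfp_OE, nearly all of it Kdr, the 1 tested of 5, which rose. In the hairpin lines they summed to 8.89 to 21.1 CPM in shKitl, against 5.72 to 7.8 CPM in shCtrl. Blood markers summed to 10.3 to 14.4 CPM in Kitl_OE, against 3.49 to 4.37 CPM in Egfp_OE, and 1 of 2 tested of 6 rose, Lyz2, while Cd3e had no read. They summed to 2.61 to 7.66 CPM in shKitl, against 2.37 to 4.44 CPM in shCtrl. Schwann cell markers summed to 2.42 to 6.92 CPM in Kitl_OE, against 1.32 to 2.88 CPM in Egfp_OE, with 1 of 2 tested of 4 higher. Their sums were 1.46 to 2.7 CPM in shKitl, against 0.985 to 1.45 CPM in shCtrl. The part of these markers in the fall of the 10 genes was not tested.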

How the data were processed

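PolyA-selected RNA of 12 libraries, 3 in each of 4 groups, was sequenced. Groups and replicate numbers came from the sample titles. The authors deposited unnormalised read counts by gene. Per the submitters' processing notes the tools were STAR 2.5.2b, featureCounts (Subread 1.5.2) and DESeq2, and the build was GRCm38. They deposited the same libraries as TPM, which sum to a fixed total over all entries including 92 spike-ins. No source used here gives the annotation release, gene lengths or strand setting.

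The counts were fitted with edgeR 4.0.16 in R 4.3.3 (filterByExpr, TMM, robust quasi-likelihood model, 1 coefficient per group, all 12 libraries). Adjusted p-values are Benjamini-Hochberg over 15271 genes, with a threshold of 0.05. Spike-ins stayed out of library sizes. CPM uses TMM-scaled library sizes; limma 3.58.1 and DESeq2 1.42.0 served as alternatives. The difference of the 2 comparisons was tested as a contrast of the same fit. The code was tested on simulated data.

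Gene positions are from the GENCODE annotation of GRCm38, which held 49326 of 49671 gene identifiers, and promoters are from RefSeq (GRCm38.p6). The 10 genes, the relatives, the markers and the motifs were chosen with earlier results of these data known. Named were the 10 genes, relatives past the threshold or directly paralogous, the nearest tested and overlapping neighbours, and the 5 genes most like the mean of the 10 among those at 5 CPM or more in the higher overexpression group. A few genes counted in the lists are not reported by name here.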

Additional observations from a re-analysis of the deposited data

Results flagged for a closer look

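Kitl itself moved in opposite directions in the 2 comparisons, lower in shKitl and higher in Kitl_OE. Of the 10 genes, 8 had log2 fold changes below 0 in both comparisons, none of them past the threshold in shKitl minus shCtrl. For Cend1 and Pip5k1b the libraries separated in opposite directions in the 2 comparisons, although neither gene passed in shKitl minus shCtrl (edgeR adjusted p = 0.273 for Cend1 and 0.420 for Pip5k1b). All shKitl libraries lay above all shCtrl libraries, with log2 fold changes of 0.6164 for Cend1 and 0.4034 for Pip5k1b, while all Kitl_OE libraries lay below all Egfp_OE libraries. The difference was not tested, because the fall in Kitl_OE chose these genes.

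For 12 of the 67 tested relatives the Kitl_OE minus Egfp_OE change differed from the shKitl minus shCtrl change. The test was a contrast of the 2 in edgeR's quasi-likelihood fit with Benjamini-Hochberg adjustment. The share of all genes past this contrast is not given here, so the 12 are not read as a trait of the relatives. The difference on the log2 scale was above 0 for Sh3bgr (4.811, adjusted p = 0.00726), Elovl1 (0.8577, adjusted p = 0.0128), Pip4k2a (0.9677, adjusted p = 0.0398), Pip4k2c (0.8457, adjusted p = 0.0374), Nkain2 (2.478, adjusted p = 0.0287) and Nkain4 (5.789, adjusted p = 0.0155). It was below 0 for Elovl6 (-1.541, adjusted p = 0.0100), Elovl7 (-3.641, adjusted p = 0.0183), Pi4k2a (-0.7151, adjusted p = 0.0314), Khdrbs2 (-7.718, adjusted p = 7.12e-05), Syvn1 (-0.7223, adjusted p = 0.0378) and Faf2 (-0.7883, adjusted p = 0.0126). Syvn1 itself did not pass between Kitl_OE and Egfp_OE (log2 -0.37, adjusted p = 0.0715).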

How the results depend on the processing

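In 24 alternatives the 10 genes stayed below 0 in Kitl_OE minus Egfp_OE, at -7.65 to -4.44 in those based on counts. With log2(TPM + 1) they ran from -5.40 (Khdrbs3) to -2.07 (Pip5k1b); a pseudocount of 1 exceeds the Kitl_OE TPM of all but Khdrbs3 and Atp1b1. Khdrbs3 changed sign in shKitl minus shCtrl with the P number as covariate (0.117), in libraries with shared P numbers (0.1977) and without shKitl replicate 1 (0.1985; range -0.3647 to 0.1985 over the libraries left out); the cause was not tested. Depth limits Kitl_OE values, which rest on 1 to 109 reads a library.

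Spike-in scaling gave 1061 genes higher and 1290 lower between Kitl_OE and Egfp_OE, with 6 relatives higher and 4 lower; it moved the median log2 of all genes in shKitl minus shCtrl to -0.063, against 0.046. Shared P numbers gave 623 and 659 genes with 3 and 2 relatives, from fewer libraries. In shKitl minus shCtrl, DESeq2 called 313 genes higher and 114 lower (relatives 2 and 1), limma on log2(TPM + 1) 7 higher, and all genes with any count 11 higher and 12 lower. Leaving out 1 library gave 1654 to 3094 genes higher and 1812 to 3056 lower between Kitl_OE and Egfp_OE, with 10 to 19 relatives higher and 8 to 17 lower. In shKitl minus shCtrl it gave 0 to 226 higher and 0 to 51 lower, with 0 to 2 relatives higher. The libraries behind those counts were shKitl replicate 3 (226 and 51 without it), shCtrl replicate 1 (65 and 17) and Egfp_OE replicate 2 (34 and 47).

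Same-numbered libraries correlated from -0.232 to 0.510 (hairpin) and 0.0195 to 0.179 (overexpression) in their deviations from the group means. Libraries with the same P number correlated at 0.545 and 0.29 (hairpin) and at -0.00214 and -0.154 (overexpression). Deviations from a mean of 3 libraries depend on each other, so these values cannot decide whether libraries are paired. With the replicate block, 2406 genes were higher and 2780 lower between Kitl_OE and Egfp_OE (17 and 13 relatives), and 0 passed in shKitl minus shCtrl.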
